A study of Homo sapiens with 5 samples.

Results

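A group of 8 genes that encode histone acetyltransferases or their partner proteins was followed through the ChIP-seq data: KAT7, EP300, CREBBP, KAT6A, KAT6B, BRPF1, JADE1 and JADE2. A summit, the 1 bp position of highest signal in a called peak, was taken as a member when it lay within 10 kb of the hg19 span of one of these genes. The 8 genes held 102 of the 209263 summits of the 5 lists. These were 21 of the 29429 control H3K27ac summits, 17 of the 31839 H3K27ac summits after knockdown, 54 of the 122439 control KAT7 summits, 10 of the 24611 KAT7 summits after knockdown and 0 of the 945 input summits.

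Histone acetyltransferases transfer acetyl groups to lysines of the histone tails. EP300 (p300) and CREBBP (CBP) are paralogous coactivators and the main writers of acetylation at lysine 27 of histone H3 (H3K27ac), which marks promoters and enhancers in use. KAT7, also called HBO1, belongs with KAT6A (MOZ) and KAT6B (MORF) to the MYST family. The MYST enzymes work in complexes with scaffold proteins, of which BRPF1 steers the enzyme towards histone H3, and JADE1 and JADE2 steer KAT7 towards histone H4.

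The cells were HCT116, a human colorectal cancer line, transfected for 48 h with a control siRNA (called control here) or with an siRNA against the long noncoding RNA ENO1-IT1 (called knockdown here). Chromatin of each was immunoprecipitated with an antibody against H3K27ac and with one against KAT7. A library without antibody was the input, whose siRNA the labels do not state. Each of the 5 groups was 1 library of 1 cell line, so differences between conditions have no replicate check and no test. The lists hold neither read counts nor transcript levels. Depth, the knockdown itself and the expression of the 8 genes are therefore unknown, and the peak names do not tell the siRNAs apart, so that the conditions rest on the sample titles.

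The spans on hg19, to the nearest kb, were chr17:47866000-47907000 for KAT7, chr22:41488000-41575000 for EP300, chr16:3775000-3931000 for CREBBP and chr8:41786000-41910000 for KAT6A. KAT6B lay at chr10:76586000-76793000, BRPF1 at chr3:9773000-9790000, JADE1 at chr4:129730000-129797000 and JADE2 at chr5:133861000-133919000. CREBBP and KAT6A are transcribed from the minus strand and the other six from the plus strand. The 5′ end of a gene is here the end of its span where transcription starts, and positions are given from it along transcription. With the flanks, the windows covered 0.0311% of the length between the outermost summits of the chromosomes. They held 0.0714% of the summits listed for H3K27ac in the control and 0.0534% after knockdown, and for KAT7 0.0441% and 0.0406%.

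**Figure D1:**
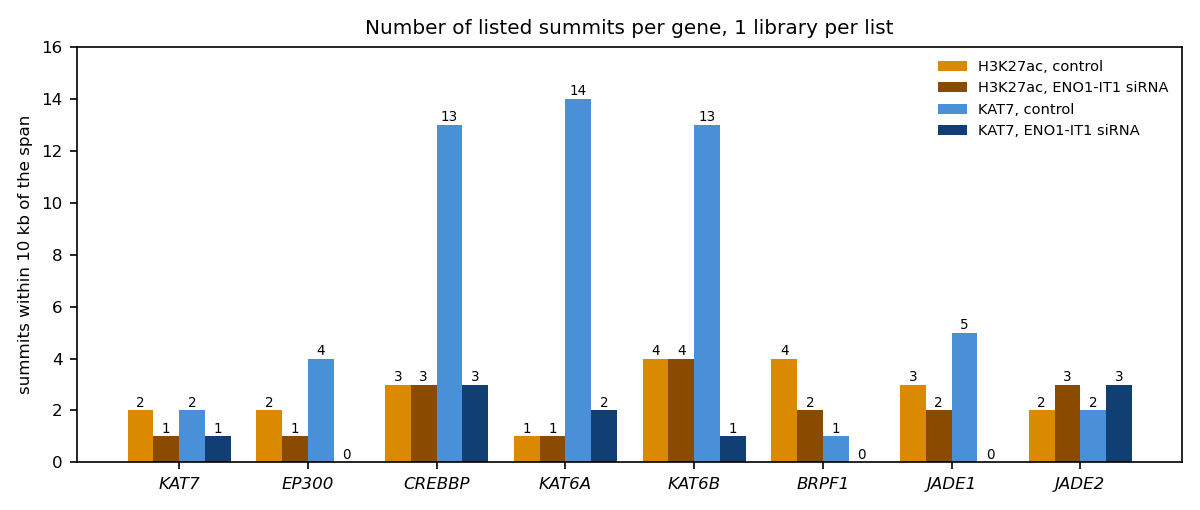
Number of summits within 10 kb of each gene (vertical axis) in the 4 immunoprecipitated lists, 1 library each. H3K27ac counts run from 1 to 4 per gene in both conditions, whereas control KAT7 counts reach 13, 14 and 13 at CREBBP, KAT6A and KAT6B and knockdown KAT7 counts do not exceed 3.

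H3K27ac was listed at the 5′ end of every one of the 8 genes in both conditions. Within 2 kb of the 5′ end lay 14 of the 21 summits listed in the control and 11 of the 17 listed after knockdown. For comparison, 2.81% of all 4 kb tiles of the genome held a control H3K27ac summit and 3.28% a knockdown one. These tiles are mostly not gene starts, and the starts of other genes on hg19 were not analysed here, so the comparison says nothing particular to acetyltransferase genes. The highest-scored summit within 2 kb was among the top 10% of the control list at 5 genes and among the top 10% of the knockdown list at 4. These ranks take the highest of up to 3 summits per gene and are among all listed summits, wherever they lie. Other gene starts were not ranked, so these counts too say nothing particular to the 8 genes. A score is the -log10 of the p or q value that the authors' peak caller gave, and it is read within its own list only, because it grows with sequencing depth.

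At KAT7, the gene of the immunoprecipitated enzyme, the control list held summits 299 bp upstream of the 5′ end (score 7.91) and 168 bp downstream of it (27.4). The knockdown list held a single summit 220 bp downstream (score 36.3), 52 bp from the stronger control summit. The stronger control summit stood in the top 4.65% of its list, and the knockdown summit in the top 4.83%. At EP300 the control summits lay 686 bp upstream (score 16.6) and 51 bp upstream (22.0), and the knockdown summit lay 31 bp upstream (33.4). Here too the knockdown summit matched the stronger control one, at a distance of 20 bp. CREBBP, the paralogue of EP300, had 1 summit per condition, 113 bp upstream in the control (score 14.9) and 98 bp upstream after knockdown (19.4). They stood in the top 17.4% and 17.7% of their lists, lower than those of EP300, at 7.69% and 5.71%.

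KAT6A and KAT6B differed in the number of H3K27ac summits listed at the 5′ end. KAT6A carried 1 summit per condition, 162 bp downstream in the control (score 10.8) and 19 bp downstream after knockdown (18.0). At KAT6B, 3 control summits lay 563 bp upstream, 513 bp downstream and 1002 bp downstream of the 5′ end, with scores of 22.0, 23.5 and 6.15. The knockdown list repeated all of them, at 486 bp upstream, 449 bp downstream and 1087 bp downstream, with scores of 20.9, 15.2 and 6.33. The KAT6B summits of the conditions were thus 77, 64 and 85 bp apart.

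Among the scaffold genes, BRPF1 held the control summit with the highest rank of any 5′ end here, 332 bp downstream (score 36.1, top 2.27%), and another 164 bp upstream (13.6). Its knockdown summit lay 292 bp downstream (score 32.2, top 6.33%). JADE2 held the highest-ranked knockdown summit, 26 bp downstream (score 43.6, top 2.75%), beside a weak one 1507 bp upstream (2.27). In the control, the JADE2 summit was 113 bp downstream (score 26.1, top 5.36%), and a further summit with a score of 5.88 lay 2028 bp downstream, just outside the 2 kb. JADE1 had the weakest 5′ end. Its control summits lay 934 and 1524 bp downstream, with scores of 4.37 and 7.69, and its knockdown summit 1372 bp downstream, with a score of 7.90. The strongest JADE1 summits lay further into the gene, at 3500 bp in the control (score 9.37) and at 2728 bp after knockdown (20.6), 772 bp apart and hence beyond the 500 bp that counted as a counterpart.

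**Figure D2:**
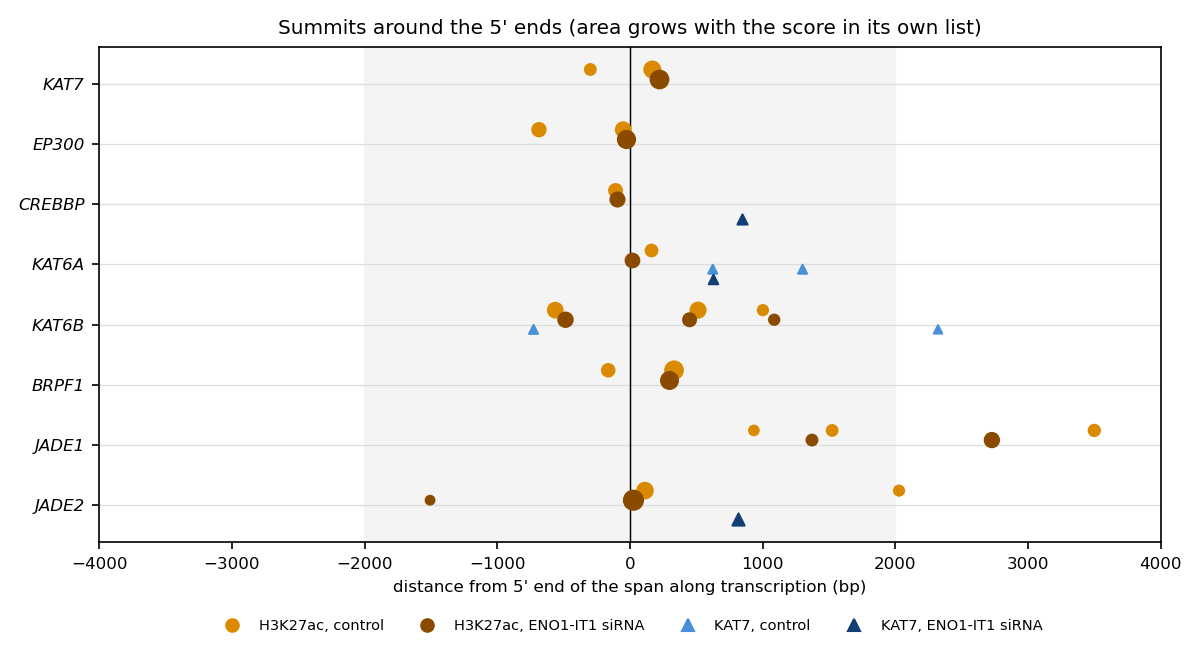
Summits by distance from the 5′ end along transcription (bp, horizontal axis) for each gene, circles for H3K27ac and triangles for KAT7, with area growing with the score in the summit's own list. H3K27ac circles of both conditions fall within 2 kb (shaded) at all 8 genes, whereas KAT7 triangles appear there at CREBBP, KAT6A, KAT6B and JADE2 only.

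The sequences at 4 of these starts are shown, because H3K27ac was listed around all of them while the KAT7 lists differed. KAT7 was listed within 2 kb at CREBBP after knockdown only and at KAT6B in the control only. At KAT7 and EP300 it was listed there in neither condition. The CREBBP and KAT6B calls had the most frequent score of their lists, 5.83 and 2.68, so no split of the sequences by KAT7 is made. They come from RefSeq for GRCh38.p14, another build than that of the summits, and run from 250 bases before to 50 after the 5′-most listed start. Capitals mark each CG dinucleotide, the site of DNA methylation that is dense in CpG island promoters.
KAT7, chr17:49788431-49788730, plus strand: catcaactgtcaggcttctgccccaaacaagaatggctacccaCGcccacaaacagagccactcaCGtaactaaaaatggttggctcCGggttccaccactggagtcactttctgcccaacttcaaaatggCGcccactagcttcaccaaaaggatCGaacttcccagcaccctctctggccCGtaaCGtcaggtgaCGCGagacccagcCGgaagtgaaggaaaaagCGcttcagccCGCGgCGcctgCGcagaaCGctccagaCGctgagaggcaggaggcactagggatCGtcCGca
EP300, chr22:41092342-41092641, plus strand: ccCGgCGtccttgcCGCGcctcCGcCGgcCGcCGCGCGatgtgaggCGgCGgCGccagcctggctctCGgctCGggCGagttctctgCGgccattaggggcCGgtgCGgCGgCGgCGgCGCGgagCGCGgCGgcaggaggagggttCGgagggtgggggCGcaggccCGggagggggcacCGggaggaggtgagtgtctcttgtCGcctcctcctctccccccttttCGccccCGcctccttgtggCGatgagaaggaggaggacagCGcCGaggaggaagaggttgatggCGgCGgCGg
CREBBP, chr16:3880664-3880963, minus strand: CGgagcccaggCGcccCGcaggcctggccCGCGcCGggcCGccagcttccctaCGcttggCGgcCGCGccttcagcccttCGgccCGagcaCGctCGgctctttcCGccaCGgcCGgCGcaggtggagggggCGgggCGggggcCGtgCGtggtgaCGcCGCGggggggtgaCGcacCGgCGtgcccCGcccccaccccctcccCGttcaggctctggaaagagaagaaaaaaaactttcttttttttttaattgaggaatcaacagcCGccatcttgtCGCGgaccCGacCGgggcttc
KAT6B, chr10:74825005-74825304, plus strand: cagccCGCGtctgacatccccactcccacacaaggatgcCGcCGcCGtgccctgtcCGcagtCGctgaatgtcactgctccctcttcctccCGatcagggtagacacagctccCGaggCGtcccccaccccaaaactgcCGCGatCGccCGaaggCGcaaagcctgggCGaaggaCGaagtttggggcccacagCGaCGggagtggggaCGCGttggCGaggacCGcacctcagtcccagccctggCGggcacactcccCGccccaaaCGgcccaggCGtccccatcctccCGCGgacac
Of the 8 genes, 7 matched the table. The number of CG dinucleotides was 19 at KAT7, 40 at EP300, 36 at CREBBP and 29 at KAT6B, against a median of 13 over 27305 promoters, 1 per gene. BRPF1 had 33, JADE1 20 and JADE2 6, the last for the outermost of 6 listed starts. As many CG dinucleotides as at EP300 were found in 7.41% of all promoters, and as many as at KAT7 in 42.7%. The letters TGACG, the half-site bound by CREB, the factor after which CREBBP is named, were searched on both strands. They occurred 2 times each in the KAT7 and CREBBP promoters and in none of the other five, and 25.0% of all promoters held them. GGGCGG, searched likewise, occurred 3 times each at CREBBP and BRPF1, once each at KAT6B, JADE1 and JADE2, and in 44.5% of all promoters. TATAAA was found at none of the 7 and in 12% of all promoters. Such matches are letters in a window and not measured sites.

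KAT7 was listed at fewer of these 5′ ends than H3K27ac. In the control it was listed within 2 kb at KAT6A and KAT6B (2 of 8 genes), and after knockdown at CREBBP, KAT6A and JADE2 (3 of 8). Of all 4 kb tiles, 14.6% held a control and 3.07% a knockdown KAT7 summit. At KAT6A the control summits lay 624 and 1301 bp downstream and the knockdown summit 626 bp downstream, 2 bp from the nearer one. Both control summits there had the most frequent score of the list, 2.68, and the knockdown summit scored 4.09. The KAT6B summit lay 727 bp upstream, again with a score of 2.68, and 164 bp from the control H3K27ac summit. The nearest knockdown KAT7 summit was 7637 bp away. After knockdown, KAT7 was listed 841 bp into CREBBP (score 5.83) and 814 bp into JADE2 (score 12.6). The nearest control KAT7 summits were 6888 and 24817 bp away. The JADE2 summit was the only KAT7 summit within 2 kb of a 5′ end to score at least 10, and it lay 788 bp from the knockdown H3K27ac summit.

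Away from the 5′ ends, control KAT7 summits were scattered through the long genes. Counted over whole windows, 5′ ends and flanks included, CREBBP, KAT6A and KAT6B together held 40 of the 54. They had 7.39, 9.72 and 5.73 summits per 100 kb, whereas the whole list averaged 4.12. The shorter windows of KAT7, EP300, BRPF1 and JADE2 held 3.28, 3.74, 2.70 and 2.56 per 100 kb, and JADE1 held 5.75. Most of these calls were weak. A score of 2.68 was shared by 22 and a score of 1.31 by 8 of the 54, together 55.6% (95% interval 41.4 to 69.1%) against 64.2% of the whole list. At the strong end, 5 of the 54 scored at least 10, 9.26% (3.08 to 20.3%) against 2.75% of the list. A score of at least 20 was given to 3 of the 54, 5.56% (1.16 to 15.4%) against 0.613%. Intervals are exact Clopper-Pearson intervals and cover counting error only.

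After knockdown the 8 genes held 10 KAT7 summits, 0.185 times the control number. Over the whole genome the corresponding ratio was 0.201, so the lower number at these genes lay close to that of the lists. A score of at least 10 was reached by 3 of the 10, beside 37.4% of the knockdown list, and 3 of the 10 had the most frequent score of that list, 5.83, beside 12.5%. EP300, BRPF1 and JADE1 held no knockdown KAT7 summit, and KAT7 and KAT6B held 1 each. The whole knockdown list averaged 0.826 summits per 100 kb, and the 8 genes held 1.09. Empty windows of 107, 37 and 87 kb, as at EP300, BRPF1 and JADE1, are thus not shown to be particular to these genes. JADE2 was the only gene with more summits after knockdown, 3 against 2. Ratios at higher score minimums rest on few summits. From a score of 3 upwards, the genes held 19 in the control and 10 after knockdown, a ratio of 0.526 against 0.676 for the lists. From 10 upwards they held 5 and 3, a ratio of 0.600, whereas the lists then stood at 2.73. Scores are read within their own list, so a shared minimum may cut the control and knockdown lists unequally. Ratios at a score minimum are therefore no measure of change between the conditions.

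**Figure D3:**
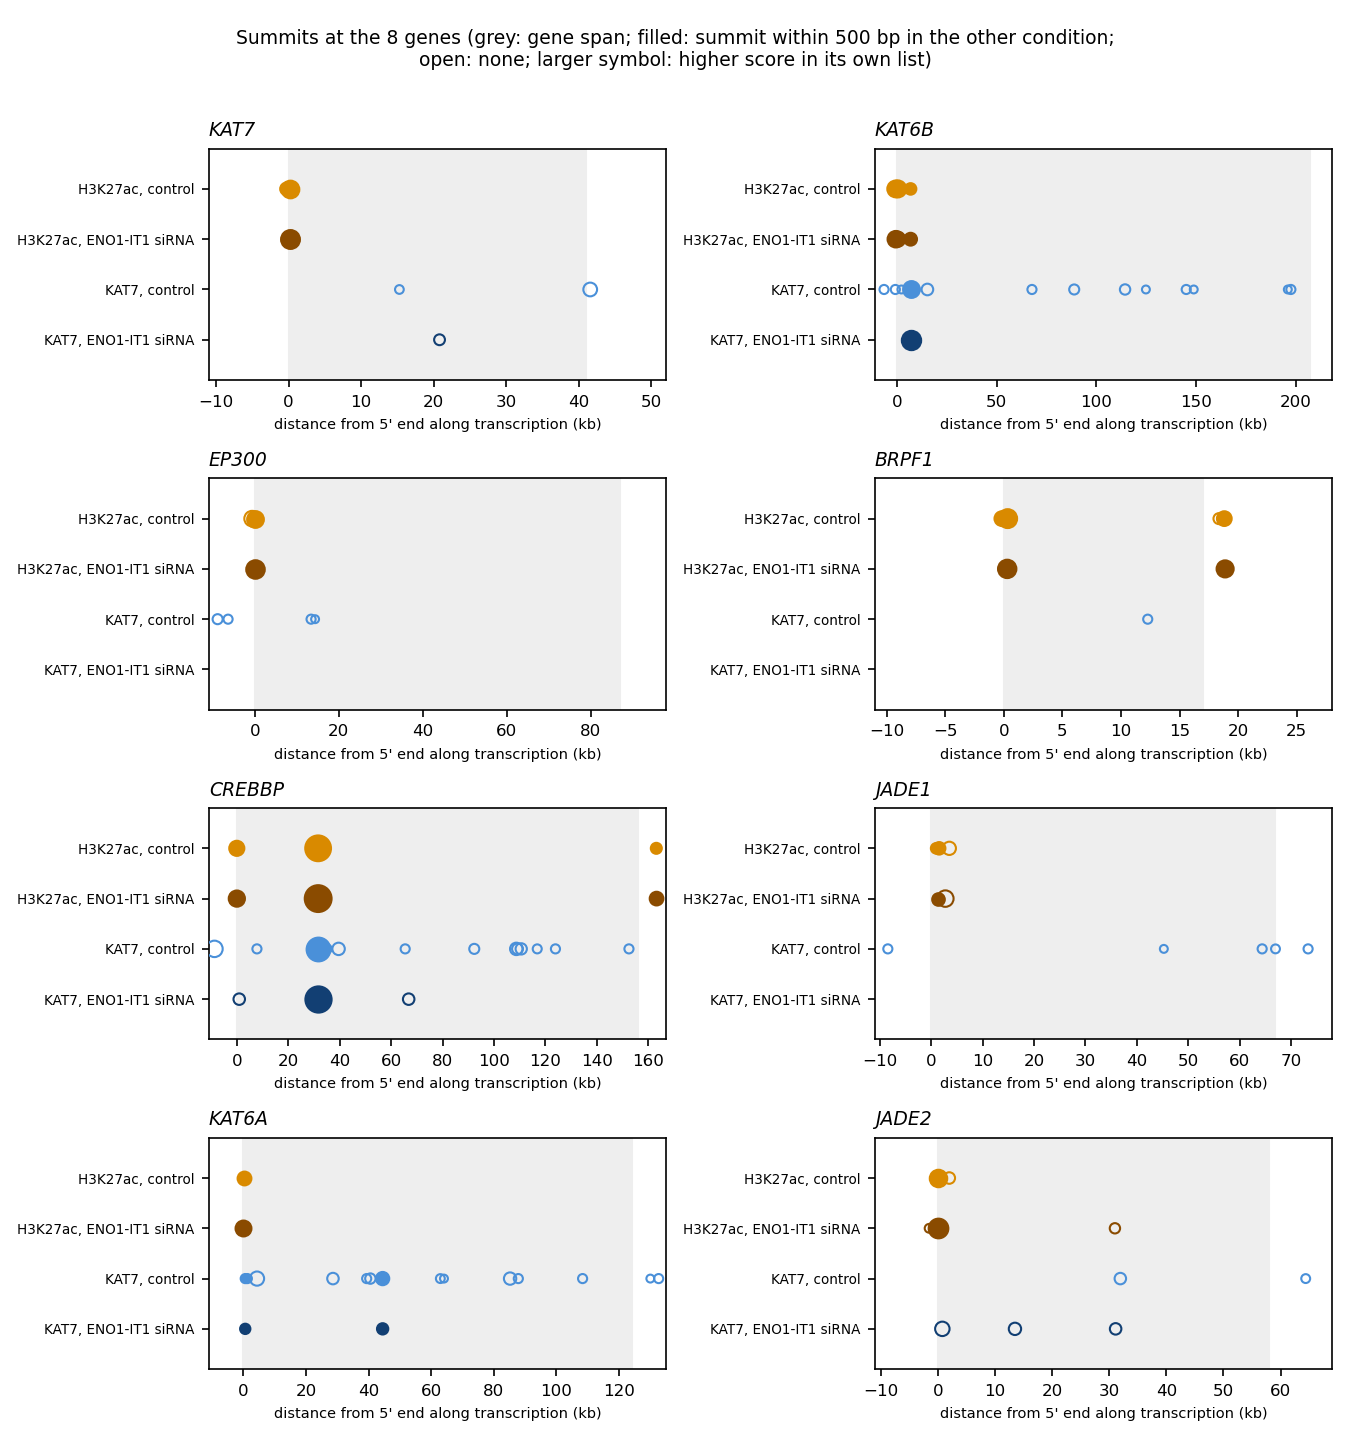
Position of every summit along each gene (kb from the 5′ end, horizontal axis) in the 4 lists; grey marks the span, filled symbols have a summit of the same antibody within 500 bp in the other condition, open ones do not, and larger symbols have higher scores. Filled H3K27ac symbols sit at the 5′ ends of all 8 genes, and also within CREBBP and KAT6B and past the 3′ ends of CREBBP and BRPF1. Filled KAT7 symbols occur only in CREBBP, KAT6A and KAT6B.

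The strongest position of all lay inside CREBBP, 31.6 kb from the 5′ end, where all 4 lists held a summit. On chromosome 16 the control KAT7 summit was at 3899446, the control H3K27ac summit at 3899447, the knockdown KAT7 summit at 3899440 and the knockdown H3K27ac summit at 3899430, which spans 17 bp. Their scores were 109.0 and 168.8 in the control KAT7 and H3K27ac lists, and 185.7 and 212.9 after knockdown. The KAT7 summits ranked 3 of 122439 and 8 of 24611, and the H3K27ac summits ranked 33 in each list. The score was far above that at the CREBBP 5′ end, 14.9 in the control and 19.4 after knockdown in the same H3K27ac lists. The nearest other summit of any list was a control KAT7 summit at 3895945, with a score of 2.68.

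KAT6B held the other position listed in all 4, 6.91 kb into the gene on chromosome 10, at 76592908 (control KAT7), 76592910 (knockdown KAT7), 76592910 (control H3K27ac) and 76592909 (knockdown H3K27ac). The KAT7 scores were 22.4 and 40.0, in the top 0.464% and 7.11% of the control and knockdown lists. The H3K27ac scores were 5.89 and 8.38, in the top 58.4% and 48.3%. A higher place in the KAT7 list than in the H3K27ac list, in both conditions, was also found at 1412 of the 2646 such sites over the genome (53.4%). The lists also differ in length, so this order is not particular to KAT6B. Sites over the genome were counted per control KAT7 summit. Neighbouring summits can share partners in the other lists, so a site can count more than once. Over the genome, 2646 control KAT7 summits (2.16%) had a summit of each other list within 500 bp, and from the knockdown side 10.3% did, against 2 of 54 and 2 of 10 at the 8 genes. The 4 positions spanned a median of 50 bp at these sites. They were as close as at KAT6B at 1.36% of them and as close as at CREBBP at 22.5%. No more than 3 of the 2646 had a control KAT7 score as high as the CREBBP site, itself included. At 223, or 8.43%, it was as high as at the KAT6B site, whose control H3K27ac score was equalled or passed at 83.4%.

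**Figure D4:**
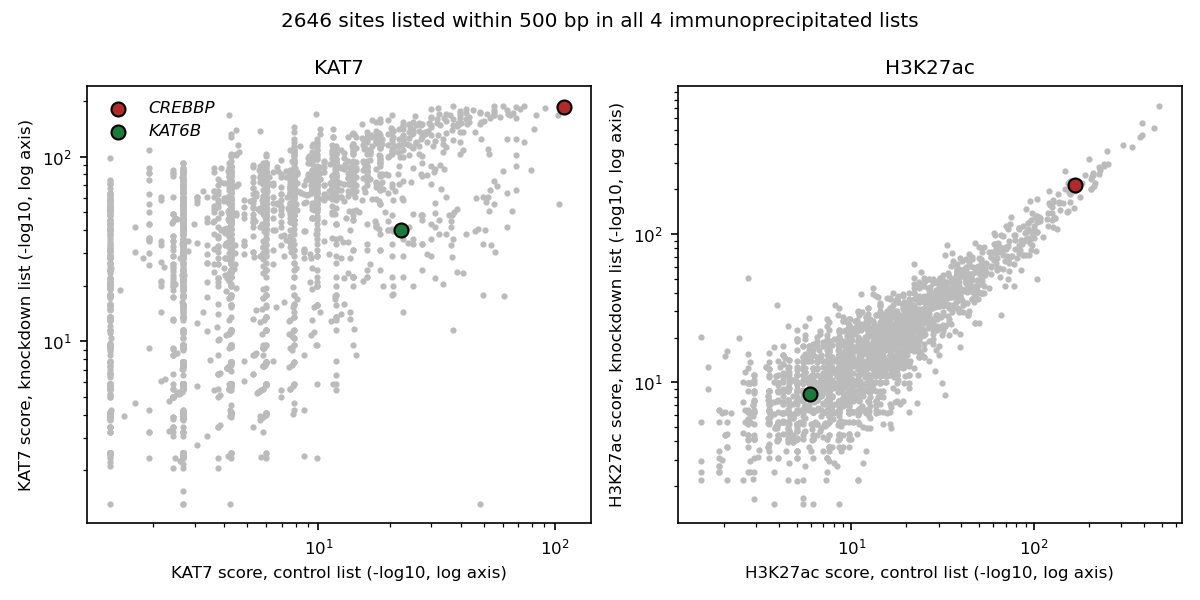
Scores in the knockdown list against scores in the control list (-log10 values on log axes) for the 2646 control KAT7 summits listed within 500 bp in all 4 immunoprecipitated lists, for KAT7 and for H3K27ac. The CREBBP site lies at the upper end of both panels (109.0 and 185.7 for KAT7), and the KAT6B site lies high for control KAT7 (22.4) and low for H3K27ac (5.89 and 8.38). Scores of different lists are not on a common scale.

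KAT7 counterparts between the conditions were few at the 8 genes. Of the 54 control KAT7 summits, 4 had a knockdown KAT7 summit within 500 bp, which is 7.41% (2.06 to 17.9%) beside 6.62% of the whole list. Of the 10 knockdown summits, 4 had a control one, 40.0% (12.2 to 73.8%) beside 32.2%. Both shares lay near those of the lists. Without the sites found in all 4 lists they were 3.85% (2 of 52) and 25.0% (2 of 8), since those sites have a counterpart by definition. Such sites made up 2.16% of the whole control KAT7 list and 10.3% of the knockdown one. The list shares without them are not given, so the drop is not shown to be particular to the 8 genes. The 4 pairs were the CREBBP and KAT6B sites above, the KAT6A 5′ end, and a position 44.5 kb into KAT6A, where the control (score 9.42) and knockdown (score 5.53) summits were 5 bp apart. The H3K27ac summits nearest to this last pair were those at the KAT6A 5′ end, 44340 bp away in the control and 44488 bp after knockdown. In JADE2, a knockdown KAT7 summit 31.1 kb into the gene (score 5.83) lay 826 bp from a control one (5.80), beyond the distance that counted. A knockdown H3K27ac summit with a score of 4.13 lay 122 bp from the former, and the nearest control H3K27ac summit was 29107 bp away.

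Of the control KAT7 summits at the genes, 4 of 54 had a control H3K27ac summit within 500 bp, 7.41% (2.06 to 17.9%) beside 3.67% of the list. After knockdown 3 of 10 did, 30.0% (6.67 to 65.2%) beside 19.0%. These shares depended on the distance, with 3.70% in the control within 100 bp and 60% after knockdown within 1000 bp. The 4 control summits were the CREBBP and KAT6B sites in all lists, the KAT6A summit at 624 bp, 462 bp from H3K27ac, and the KAT6B summit upstream of the 5′ end. The 3 knockdown summits were the same CREBBP and KAT6B sites and the one 31.1 kb into JADE2. From the other side, 4 of the 21 H3K27ac summits in the control had KAT7 within 500 bp, beside 14.8% of that list, and 3 of the 17 after knockdown, beside 14.3%. At KAT7, EP300, BRPF1 and JADE1 no KAT7 summit of either list lay within 500 bp of H3K27ac of its condition.

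Of the 3 control KAT7 summits at the genes scoring at least 20 (0.613% of the list did so), the CREBBP and KAT6B sites were listed again and the third was not. The third lay 8.81 kb upstream of CREBBP, at 3939810 on chromosome 16, with a score of 20.5 in the top 0.529% of the list. Its nearest knockdown KAT7 summit was 9651 bp away, and its nearest control H3K27ac summit 8697 bp away, at the CREBBP 5′ end. Both knockdown KAT7 summits scoring at least 20 were the 2 sites found in all lists (16.8% of that list scored so). The other control KAT7 summits scoring at least 10 (2.75% of the list) lay 4392 bp into KAT6A (score 11.8) and 41.6 kb from the 5′ end of KAT7, just past the end of its span (score 10.6). The nearest knockdown KAT7 summits were 3766 and 20764 bp away. How often summits of the whole list at these scores had a counterpart is not given here. The missing counterparts are therefore not shown to be particular to these genes.

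H3K27ac positions recurred between the conditions at about the rate of the lists. Of the 21 control H3K27ac summits, 16 had a knockdown counterpart, 76.2% (52.8 to 91.8%) beside 71.9% of the list. Of the 17 knockdown summits 14 had a control one, 82.4% (56.6 to 96.2%) beside 64.3%. The 5 control summits without a counterpart lay at KAT7 and EP300 upstream of the 5′ end, downstream of BRPF1, and in JADE1 and JADE2. The nearest knockdown H3K27ac summit was 519, 655, 526 and 772 bp away at the first 4 and 2002 bp away in JADE2. The 3 knockdown summits without a counterpart were the stronger JADE1 summit and both weak JADE2 summits, 1507 bp upstream and 31.0 kb into the gene. A score of at least 20 was given to 7 of the 21 control summits, beside 10.1% of the list, and to 8 of the 17 knockdown summits, beside 17.3%. Among these, the JADE1 summit alone had no counterpart within 500 bp, and its nearest control summit was 772 bp away. The share of list summits at this score without a counterpart is not given here. Scores of at least 10 were given to 12 of the 21 control H3K27ac summits, 57.1% (34.0 to 78.2%) beside 31.2% of the list. After knockdown they were given to 12 of 17, 70.6% (44.0 to 89.7%) beside 40.1%. Of the summits at the genes, 14 of 21 and 11 of 17 lay within 2 kb of a 5′ end, whereas the lists hold all summits. Summits at other gene starts were not scored apart, so the higher shares are not shown to be particular to these genes.

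**Figure D5:**
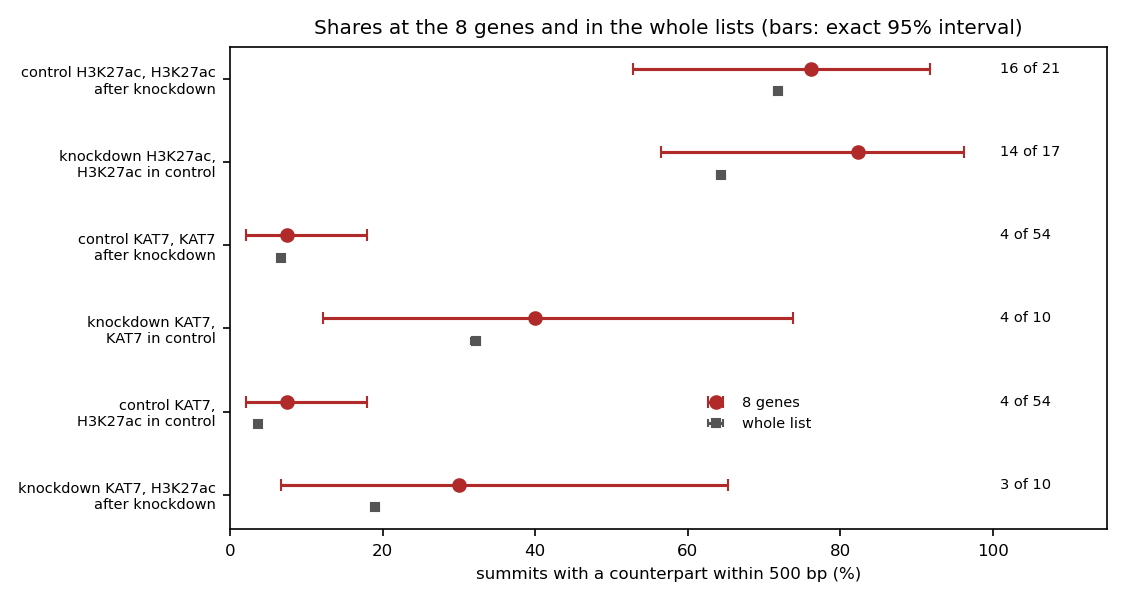
Share of summits with a counterpart within 500 bp (%, horizontal axis) at the 8 genes (circles, with the number of summits at the right) and in the whole lists (squares), with exact 95% intervals that cover counting error only. Each interval of the 8 genes includes the share of its whole list, from 7.41% beside 6.62% for control KAT7 to 82.4% beside 64.3% for knockdown H3K27ac.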

How the data were processed

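ChIP-seq summits of H3K27ac and KAT7 in HCT116 cells after control or ENO1-IT1 siRNA, and of input DNA, were used, 1 library per group. The submitters' processing notes name Bowtie, MACS2 and the hg19 build, from which the authors' peaks and summits came. For versions, options and the calling control, nothing is given in the sources used here. Peak names carry a tag for duplicate removal. Each deposited score is a -log10 p or q value, and which is not stated.

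Comparisons used SciPy 1.17.1, pandas 2.3.3 and numpy 2.4.6 in Python 3.11.15, and plots matplotlib 3.10.9. Gene spans came from a fixed list of hg19 intervals given to the nearest kb, and strands from the RefSeq promoter table (for KAT6A from general knowledge). A counterpart was a summit at most 500 bp away. Overlap and window counting were tested on simulated data. All 8 genes were named, with each gene's 5′ end summits, the sites in all 4 lists and the summits scoring at least 20. The genes were chosen with earlier results of these data known. Alternatives were other distances, score minimums, flanks, lists of equal length and removal of summits within 1000 bp of input, which could change nothing at these genes. Other KAT7 partners and acetyltransferases, such as BRD1 and KAT5, were not analysed here because no hg19 annotation was used. Positions count from 1.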

Additional observations from a re-analysis of the deposited data

How the results depend on the processing

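Removing summits near input could not change any of 8 values, since no input summit lay near these genes. Of the 79 other recomputed values for 12 results, 66 stayed within the 95% interval of the reported value (for numbers of genes, within 1.5 times). These intervals are wide, and 10 of the 66 differed from the reported value by over 1.5 times. The other 13 rested on the distance, the score minimum or the list length. For shares, the whole-list values at these settings are not given, so the shifts below are not shown to be particular to the 8 genes. With a counterpart allowed within 1000 or 2000 bp, 95.2% of the control H3K27ac summits at the genes were kept. The kept share of control KAT7 summits was 21.4% with lists of equal length, 40.0% at a score of at least 10 and 66.7% at 20, and that of knockdown KAT7 summits was 100% at 20 (2 of 2). The share of control KAT7 summits with H3K27ac was 20% at 10 and 33.3% at 20, with the minimum on both antibodies. The knockdown to control ratio of KAT7 summits was 0.600 at 10 and 0.667 at 20, and 0.526 at a score of at least 3, a minimum chosen after seeing the data, as was leaving out the sites in all 4 lists. Over the whole lists that ratio was 2.73 at 10, 5.51 at 20 and 0.676 at 3. Scores grow with depth, so a score minimum may cut the control and knockdown lists unequally. Among the 10, the kept share of control KAT7 was 12.96% at 2000 bp, 15.8% at a score of at least 3 and 3.85% without the sites in all 4 lists, and that of knockdown KAT7 was 66.7% at 10 and 25.0% without those sites. KAT7 with H3K27ac was at 3.70% within 100 bp and 13.3% with lists of equal length in the control, and after knockdown at 60% within 1000 and 2000 bp and 50% at 20. KAT7 at a 5′ end was listed at 0 genes in the control and 1 after knockdown at a score of at least 10. The ratio for H3K27ac summits was 0.810 over all scores, 1 at 10 and 1.14 at 20, all within its interval of 0.401 to 1.61. Over the whole lists that ratio was higher at each setting, at 1.08, 1.39 and 1.86. The ratios of the genes at 10 and 20 had wider intervals of their own, 0.411 to 2.43 and 0.362 to 3.70. These include the list ratios at the same minimums, and 1.08 lay within the interval over all scores. The cause of these shifts was not tested, and the higher minimums leave 5 or fewer KAT7 summits per list at the genes. No paired analysis was possible because each group holds 1 library. Depth is unknown, so a position missing from a list was not detectable there at the authors' threshold and is not shown to be absent.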

Other observations

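Beyond the 8 genes themselves, the flanks held H3K27ac at other positions in both conditions. Past the 3′ end of BRPF1, whose next protein-coding gene in RefSeq is OGG1, a DNA repair glycosylase gene, control summits lay 18.4 and 18.8 kb from the BRPF1 5′ end (scores 5.03 and 13.6) and a knockdown summit at 18.9 kb (score 23.8). Past the 3′ end of CREBBP, on the side of TRAP1, which encodes a mitochondrial chaperone, the control (score 5.03) and knockdown (score 10.49) summits lay 94 bp apart. No KAT7 summit of either list lay within 500 bp of these. Input summits were far from all 8 genes, and the nearest was 1183 kb from the span of KAT6A.

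Closely spaced H3K27ac summits were more frequent in the control list, a pattern chosen after its values were seen. At KAT7, EP300, KAT6B, JADE1 and both sites of BRPF1, control summits lay 456 to 635 bp from a neighbour, 6 of 13 gaps being at most 1000 bp. After knockdown 2 of 9 gaps were, both at KAT6B. Over the whole lists, 22.5% of the control gaps and 15.9% of the knockdown gaps were at most 1000 bp, so the direction at the genes was also that of the lists. Of the 5 control H3K27ac summits without a counterpart, 4 lay within 1000 bp of a knockdown summit. The cause was not tested.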
